A study of Aedes aegypti with 6 samples.

Results

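Aedes aegypti is the mosquito that carries dengue, Zika and yellow fever viruses. Its larvae live in standing water, and its adults live on land, where females feed on blood and make eggs and males do not. RNA of a whole-body pool is the sum over all tissues of all its animals, so a transcript made in 1 tissue, 1 sex or a few animals is averaged over the pool.

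AAEL003398 and AAEL009451 are 2 genes with strongly unequal levels between adult mosquitoes of different collection sites and low levels in larvae, out of 19804 gene identifiers of which 8892 had a count in any library. They were chosen on their measured levels, in CPM (the count of a gene per 1000000 gene counts of its library). The limits were a highest value of at least 300 CPM over the 3 adult pools, a lowest adult value of at most 3 CPM, and less than 100 CPM in every larval pool. The study sequenced adults and larvae caught at 3 locations in Eastern India, with site C as location 3, site K1 as location 1 and site K3 as location 2. Each of the 6 libraries, C, K1 and K3 adults and C, K1 and K3 larvae, held total RNA from 10 pooled mosquitoes, and no group had a second pool. The labels used here state no strain, sex, feeding state or age. With 1 pool per stage and site, a difference between sites cannot be told apart from a difference between pools, and fewer cells of a type cannot be told apart from less RNA per cell. No difference below has a replicate check, so none carries a p-value.

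The files pair these identifiers with no gene name, and 0 of them matched the RefSeq gene table of assembly AaegL5.0, so no function is given for either gene. Gene counts numbered 3271618 to 10450701 in adults and 12049243 to 18328454 in larvae. K3 adults had the fewest gene counts, the fewest genes with a count (3305, against 5459 and 5805 in the other adult pools) and the largest share of reads aligned to several places, at 62.2%. The 95% intervals given are exact Poisson intervals for levels and exact Clopper-Pearson intervals for shares. They cover counting error only and take each read as independent. Reads copied from 1 fragment are not independent, so the true counting error can be wider.

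AAEL003398 was read in 1 adult pool only. It had 1711 counts in C adults, a level of 392 CPM (interval 374 to 411), and no count in K1 or K3 adults. At the level of C adults, the depth of the other libraries would give 4101 counts in K1 adults and 1284 in K3 adults. A count of 0 was taken to allow at most 3 counts per library, with reads as independent. On that basis the level in C adults was at least 1367-fold higher than in K1 adults and at least 428-fold higher than in K3 adults. The strand-variance ratio is the variance of the forward-strand share over its binomial value, taken among genes with 20 to 100 reads. It was 8.46 in K1 adults and 11.5 in K3 adults. Divided by it, the expected counts come to 485 and 112, so the bounds are smaller on that scale. The ratio was not measured at the adult counts of these genes. In C adults, genes of like count to AAEL003398 had forward shares of 36.9 to 72.0% (5th to 95th percentile). Values scaled by the ratio may thus allow too little for strand variance. In C adults AAEL003398 ranked 206 by count among 5805 genes with a count.

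AAEL009451 was read in 2 of the adult pools. It had 1934 counts in C adults, or 444 CPM (interval 424 to 464), 936 counts in K1 adults, or 89.6 CPM (83.9 to 95.5), and 0 in K3 adults. The level in C adults was 4.95-fold that in K1 adults (interval of the ratio 4.58 to 5.36). With reads taken as independent, the level in C adults was at least 484-fold higher than in K3 adults, and that in K1 adults at least 97.7-fold higher. At the levels of C and K1 adults, 1451 and 293 counts would be found at the depth of K3 adults. Divided by the strand-variance ratio, these come to 127 and 25.6, so the bounds are smaller on that scale.

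**Figure D1:**
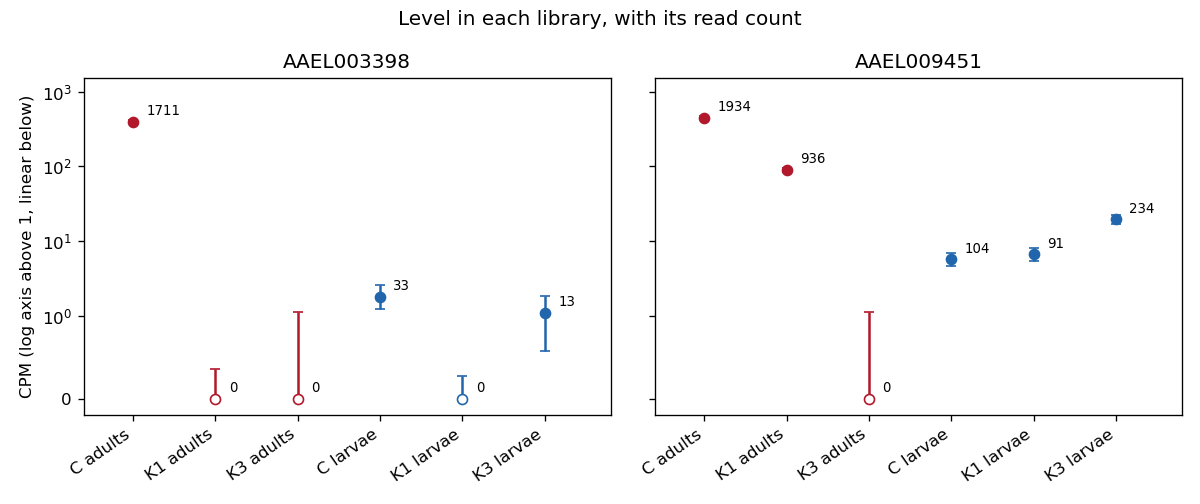
CPM of AAEL003398 (left) and AAEL009451 (right) in each library, with adults in red and larvae in blue, the read count beside each point, exact 95% Poisson intervals as bars and open points for a count of 0. AAEL003398 stands at 392 CPM in C adults and at 0 in K1 and K3 adults, while AAEL009451 stands at 444, 89.6 and 0 CPM in C, K1 and K3 adults.

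The 2 genes shared their highest pool, C adults, and their lack of any count in K3 adults, and they parted in K1 adults. The limits fix that each gene is high in some adult pool and low in another, but not which site it is. Over the 6 libraries, the distance between the 2 profiles was 7.96 (Euclidean, on log2(CPM + 1)), and of the 5771 other genes with at least 50 counts, 1561 lay closer to AAEL003398 and 1089 closer to AAEL009451. Together they held 0.0836% of the gene counts in C adults (interval 0.0809 to 0.0864%), 0.00896% in K1 adults (0.00839 to 0.00955%) and 0 of 3271618 in K3 adults.

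Differences of this size between adult pools were rare among well-expressed genes. Of 295 genes with at least 300 CPM in some adult pool, 2 (0.678%) fell to 3 CPM or less in another, and these are the 2 genes described. Among the 293 of them with a count in all 3 adult pools, the median ratio of the highest to the lowest adult level was 1.83. The highest adult value was in C adults for 114 of the 295, in K1 adults for 81 and in K3 adults for 100. By direction, 2 of the 239 genes at 300 CPM or more in C adults were at 3 CPM or less in K3 adults (0.837%), and 1 of the 239 in K1 adults (0.418%). None of the 230 genes that high in K1 adults, and none of the 233 that high in K3 adults, was at 3 CPM or less in another adult pool. The same 2 limits applied to larvae gave 4 of 346 genes (1.16%). By direction, only K3 against C was counted in larvae. There, 4 of the 267 genes that high in K3 larvae were at 3 CPM or less in C larvae (1.5%).

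**Figure D2:**
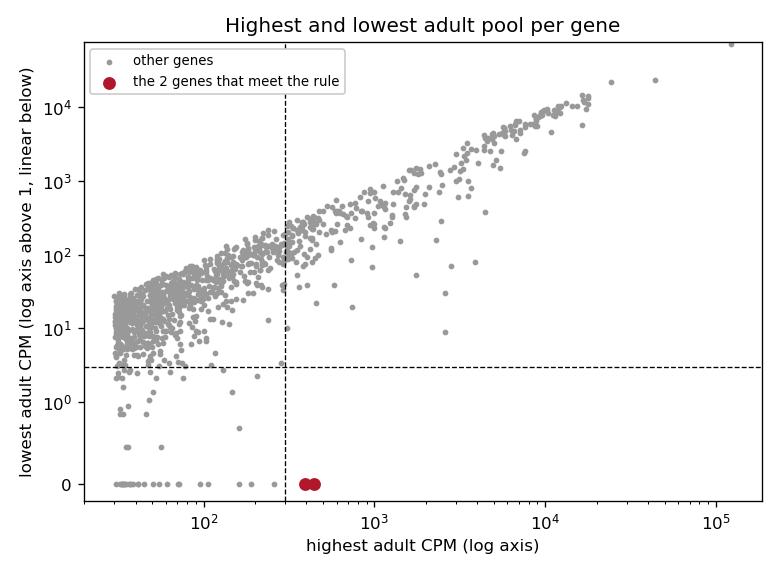
Highest adult CPM (horizontal, log axis) against lowest adult CPM (vertical, log axis above 1 and linear below) for each gene that reached 30 CPM in an adult pool, with dashed lines at 300 and 3 CPM. The 2 genes, in red, lie alone in the lower right corner, at a lowest adult value of 0.

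Few genes lay near the limits. Both genes had 0 as their lowest adult value, and the next gene up among those past the other limits, AAEL003060, had 8.94 CPM. It had the opposite site order, with 8.94 CPM in C adults, 1299 in K1 adults and 2595 in K3 adults, and at most 1.69 CPM in larvae. The gene after it, AAEL010147, had 307 CPM in C adults, 12.9 in K1 adults and 10.1 in K3 adults. Just under the limit of 300 CPM lay AAEL011797, with 258 CPM in C adults, 8.04 in K1 adults and no count in K3 adults or any larvae. AAEL019894 came next, with 190 CPM in C adults, 97.1 in K1 adults and 0 in K3 adults. The larval limit alone kept out 0 genes, so leaving it out could not change the list. A lowest adult value of 0 stays 0 under scaling or in a single-strand column, so only the other limits could drop either gene there.

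With the upper limit lowered to 100 CPM, 8 genes passed, the same 2 and 6 more. Of the 8, 6 were highest in C adults and 2 in K1 adults, and for 7 of them no adult pool was lower than K3. How often C was highest or K3 lowest over all genes that reached 100 CPM was not counted. These counts are thus a description, not a trait of the 8 genes. Of the 6 more, 4 had no count in K3 adults. The exception to the low K3 level, AAEL003723, had 0.688 CPM in C adults, 161.8 in K1 adults and 92.6 in K3 adults. K3 adults were also the library with the fewest gene counts. Of 665 genes at 30 CPM or more in both C and K1 adults, 6 (0.902%, AAEL009451 among them) had no count in K3 adults. Of 799 genes at 30 CPM or more in C adults, 4 (0.501%, AAEL003398 among them) had no count in either K1 or K3 adults. The part of the K3 library in these zeros was not tested.

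In larvae AAEL009451 did not keep the site order of the adults, and AAEL003398 had at most 33 counts. AAEL009451 was detected in all 3 larval pools, with 104 counts in C larvae (5.67 CPM), 91 in K1 larvae (6.61 CPM) and 234 in K3 larvae (19.4 CPM). It was thus highest in larvae of the site whose adults had no count. The level in C larvae was 0.292 of that in K3 larvae (interval 0.230 to 0.370), and that in K1 larvae was 0.341 of it (0.264 to 0.436), or 0.226 with TMM-adjusted levels. C and K1 larvae had a ratio of 0.858, with an interval of 0.641 to 1.15 that includes equal levels. AAEL003398 had 33 counts in C larvae (1.80 CPM), 0 in K1 larvae and 13 in K3 larvae (1.08 CPM). With reads as independent, C larvae stood at least 8.26-fold above K1 larvae, and K3 larvae at least 4.95-fold. After division by the strand-variance ratio, the counts in C and K3 larvae came to 2 and 4, so neither bound holds on that scale. The ratio of C to K3 larvae was 1.67, with an interval of 0.855 to 3.45. By measured value, 1 of the 2 genes had its highest larval and adult value at the same site. It was AAEL003398, whose interval for C to K3 larvae includes equal levels, so its highest larval site is not settled. Among 288 genes with at least 300 CPM in some adult pool and at least 10 larval counts, 108 (37.5%) had both at the same site.

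Between the stages of a site, the genes were higher in adults wherever adults had a count. AAEL003398 was 218-fold higher in C adults than in C larvae (interval 155 to 318), against the 33 larval counts. With counts scaled for the uneven strands of each library's genes (the strand-variance ratio), this interval widened to 60.0 to 1805. AAEL009451 was 78.2-fold higher in C adults than in C larvae (64.2 to 96.2) and 13.5-fold higher in K1 adults than in K1 larvae (10.9 to 17.0). At site K3 the order of AAEL009451 turned round, with 0 counts in adults and 234 in larvae. With reads taken as independent, it was at least 21.2-fold lower in adults than in larvae. After the same scaling, the level of K3 larvae would give 5.55 counts in K3 adults. That is little above the 3 counts taken as the limit for a count of 0, so the 21.2-fold bound does not hold on that scale. AAEL003398 had 0 counts in K3 adults and 13 in K3 larvae, whose level would give 3.53 counts at the depth of K3 adults, so a difference was not detectable there. It had no count at either stage of site K1. The limits used both stages, so these ratios are a description.

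The strand of the reads, which the limits did not use, was close to even in the pools where the genes were high. The total of forward over reverse counts was 1.15 to 1.24 in the 6 libraries, and a library that does not keep strand gives a gene about as many forward as reverse reads when many separate fragments were sequenced. In C adults 53.7% of the AAEL003398 reads were forward (interval 51.3 to 56.1%) and 52.5% of the AAEL009451 reads (50.2 to 54.7%), and in K1 adults 49.5% of the AAEL009451 reads were (46.2 to 52.7%). Both intervals in C adults lie above an even share. Genes of like count in C adults (within 1.5 times of AAEL003398) had a median share of 51.3%. How many separate fragments these counts stand for was not tested. The few larval reads of AAEL003398 differed between pools, with 0 of 33 forward in C larvae and 7 of 13 in K3 larvae. In C larvae, 367 of 1108 genes of like count (33.1%) also had all reads on 1 strand, against 17 of 1241 (1.37%) in K3 larvae. The larval reads of AAEL009451 were 45.2% forward in C larvae (35.4 to 55.3%), 47.3% in K1 larvae (36.7 to 58.0%) and 39.7% in K3 larvae (33.4 to 46.3%). The interval in K3 larvae lies below an even share. Genes of like count there had a median of 51.9% and a 5th percentile of 35.4%. For both genes the forward and reverse counts summed to the count for both strands in every library, as they did for 91.8% of the genes with a count.

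The profiles most like each gene, by the distance above, followed its order of adult pools at a lower level in C adults. Closest to AAEL003398 was AAEL005188 (distance 3.31), with 44.7 CPM in C adults, 0 in K1 and K3 adults and 1.04 CPM in C larvae. AAEL006563 (3.35) had 55.0 CPM in C adults and 0 in the other 5 libraries. Closest to AAEL009451 was AAEL019894 (2.34), with its adult levels given above and 1.25, 4.29 and 8.38 CPM in C, K1 and K3 larvae. AAEL020221 (3.93) had 77.8 CPM in C adults, 41.7 in K1 adults and 3.06 in K3 adults. These genes were picked for their likeness, so it is a description over 6 libraries.

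**Figure D3:**
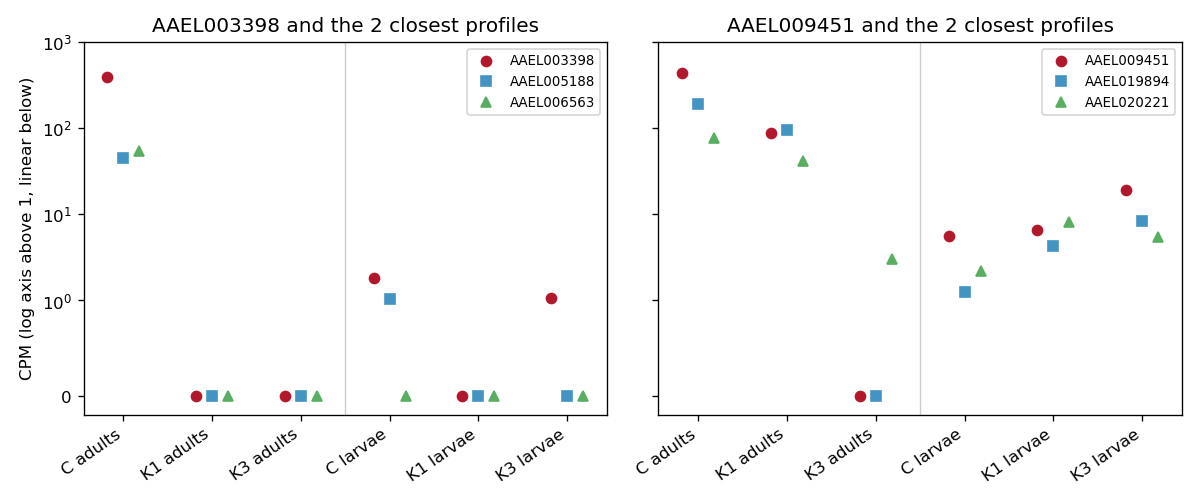
CPM (log axis above 1, linear below) of AAEL003398 and AAEL009451, in red, and of the 2 genes with the closest profile to each, in blue and green, in the 6 libraries. The genes close to AAEL003398 are above 0 among adults in C adults alone, and those close to AAEL009451 are highest in C adults and lowest in K3 adults among the adults.

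Reads across annotated introns gave a second readout of the same libraries, for genes that the RefSeq table lists by LOC symbol. Each CPM was taken over the total of such reads placed in exactly 1 RefSeq gene, 1015348 to 3695380 per adult library. Of 240 RefSeq genes with at least 300 CPM of junction reads in some adult pool, 3 (1.25%) were at 3 CPM or less in another, and 2 of these were also under 100 CPM in every larval pool. Both are protein-coding genes of chromosome 3, and both were highest in K1 adults. The 2 genes chosen on gene counts were highest in C adults, so the readouts differ in the site that was high. Junction CPM counts only reads across introns, so it is not on the scale of the gene CPM. LOC5572959 had 248 junction reads in C adults (152 CPM), 1414 in K1 adults (383 CPM) and 0 in K3 adults, with 10, 0 and 0 reads in C, K1 and K3 larvae. LOC5572985 had 11 reads in C adults (6.75 CPM), 2868 in K1 adults (776 CPM) and 0 in K3 adults, against 285, 317 and 125 reads in C, K1 and K3 larvae. In K3 adults 3 junction reads are 2.95 CPM, so there the limit of 3 CPM admits no more than 3 reads. Whether an AAEL gene and a LOC gene are the same gene is not given in the sources used here.

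Counting introns outside the annotation as well added 1 gene, LOC5577994 on chromosome 3, and it was high in C adults. It had 967 junction reads in C adults (588 CPM), none in K1 or K3 adults, none in C or K1 larvae and 8 in K3 larvae. Its reads in C adults were split between the annotated intron of 11825 bases, with 473 reads, and 3 unannotated introns with 494 reads, of which 487 fell on 1 intron of 10924 bases. Both of these introns carry the usual GT/AG ends. In K3 larvae the same annotated intron had 5 reads and the unannotated introns had 0. On annotated introns alone, LOC5577994 had 473 of the 1628859 junction reads in C adults, short of 300 CPM. That was the only limit it missed.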

How the data were processed

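Whole-body libraries of 6 pools were used, 1 per stage and site, so each is a group of its own. The deposited gene tables hold raw counts per gene in 3 columns, 1 without regard to strand and 1 per strand, and 4 summary rows that were left out (shares of all reads: not aligned 22.5 to 58.7%, several places 11.5 to 62.2%, no gene 1.55 to 7.50%, several genes 0.0722 to 0.533%). Per intron, the deposited junction tables give counts of reads mapped uniquely and of reads mapped to several places; the unique ones were used. The authors used STAR, edgeR, fastp, cutadapt and FastQC, per the submitters' processing notes. Tool versions, the annotation and the build were not stated there. Reads at several places count for no gene, which lowers genes with near-identical copies.

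CPM was computed from the column for both strands over the sum of all gene rows, in Python 3.11.15 with scipy 1.17.1. The selection step was run on simulated Poisson counts with planted genes. This checked only that the step works as written, since those counts lack the excess strand variance of these libraries. Of 15579 annotated junctions, 92.8% lay in exactly 1 RefSeq gene. The table gives no gene descriptions, so the product groups planned for RefSeq genes were not formed. Alternatives were TMM factors (edgeR 4.0.16) and DESeq2 1.42.0 size factors (R 4.3.3), totals without the 10 most abundant genes, single-strand columns, other limits and each adult library left out. The limits and lists were chosen with earlier results of these data known. The genes named are, at each highest adult site, up to 2 genes with the highest level, and the 2 nearest each limit. The 2 closest profiles, AAEL003723, LOC5577994, the ratios between pools with TMM and the strand-variance scaling were chosen after values were seen.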

Additional observations from a re-analysis of the deposited data

Results flagged for a closer look

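AAEL009451 changed between the stages in opposite directions at different sites. It was 78.2-fold higher in adults than in larvae at site C and 13.5-fold higher at site K1. At site K3 it had 0 counts in adults and 234 in larvae, at least 21.2-fold lower in adults with reads taken as independent. At the level of K3 larvae, 63.5 counts would be found at the depth of K3 adults. This difference between sites was not tested, since each site has 1 pool per stage. The variance of the forward-strand share over its binomial value, among genes with 20 to 100 reads, was 11.5 in K3 adults and 2.98 in K3 larvae. With counts divided by that ratio, 5.55 would be found in K3 adults. That is little above the 3 counts taken as the limit for a count of 0, so the 21.2-fold bound does not hold on that scale.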

How the results depend on the processing

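TMM-adjusted CPM, DESeq2 size factors and either strand column kept the same 2 genes, but cannot raise a count of 0. A lowest adult value of at most 1 CPM or no larval limit could not change the list. TMM moved all levels of a library by -0.26 to 0.33 on the log2 scale, so ratios between libraries moved with it beyond some of the counting intervals. For AAEL009451 it gave a ratio of 4.82 for C to K1 adults, 0.206 for C to K3 larvae, 0.226 for K1 to K3 larvae, 99.1 for C adults to C larvae and 18.7 for K1 adults to K1 larvae, and for AAEL003398 276 for C adults to C larvae. All kept their direction. Totals without the 10 most abundant genes added 1 gene (3 in all), and 2 of the 3 then reached 30 CPM in exactly 1 adult pool. A lowest adult value of up to 10 CPM added 1 gene, highest in K3 adults and above 30 CPM in K1 and K3. An upper limit of 100 CPM gave 8 genes, 6 highest at C and 2 at K1, of which 3 reached 30 CPM in exactly 1 adult pool, 4 in C and K1 and 1 in K1 and K3. An upper limit of 1000 CPM gave 0 genes at any site and in any pattern. A larval limit of 10 CPM left 1, AAEL003398, highest at C, and 0 in the pattern of C and K1. With 100 CPM counted as raised, both genes were raised in exactly 1 adult pool and 0 in C and K1. Without C adults there were 0 genes, without K3 adults 1 (AAEL003398) and without K1 adults both, all highest at C. Junctions outside the annotation added 1 RefSeq gene highest at C. After division of the counts by the strand-variance ratio (2.98 to 25.4 over the libraries), the interval of C to K1 adults for AAEL009451 was 4.03 to 6.13, that of C to K3 larvae 0.114 to 0.631 that of K1 to K3 larvae 0.0905 to 0.907, that of C adults to C larvae 37.7 to 195 and that of K1 adults to K1 larvae 5.14 to 50.6. AAEL003398 in C larvae came to 2 counts after that division, too few to rank the larval pools. The ratio came from genes with 20 to 100 reads, so intervals that rest on the larger adult counts may still be too narrow. Larvae and adults could be paired by site, but the stage difference was used to choose the genes and was given no test, and between sites there is 1 pool per stage.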
